A study of Sus scrofa with 6 samples.

Results

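Annexins and the annexin partner S100A10 were followed in ampulla tissue of the pig oviduct, at 2 stages of the ovarian cycle. The set is a list of 10 genes: ANXA1, ANXA2, ANXA3, ANXA4, ANXA5, ANXA6, ANXA7, ANXA8, ANXA11 and S100A10. A listed gene was a member if its symbol could be matched to a row of the count table, and 8 of the 10 could, out of 35670 genes in all. ANXA3 and ANXA8 had no row under their symbols and were not analysed here. The rule uses no measured value.

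The study compared 3 libraries of post-ovulatory ampulla with 3 of early luteal ampulla, all from female pigs (Sus scrofa). No treatment, strain or age is given for either stage. The ampulla is the upper segment of the oviduct, where fertilisation takes place. Libraries of polyadenylated RNA were made from whole tissue, so in what follows a lower share of a cell type and less RNA per cell cannot be told apart. No source says that the 3 libraries of a stage came from different animals, so each p-value measures the spread between libraries, which may be technical.

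Annexins are proteins that attach to membranes rich in acidic phospholipids when calcium is present. Their shared core of annexin repeats carries the calcium sites, and the N-terminal tail differs between members and binds partners such as S100 proteins. In the oviduct, sperm are held against the epithelium before fertilisation. In cattle, annexins A1, A2, A4 and A5 of oviduct epithelium were identified as candidate receptors for the seminal plasma proteins that coat sperm, and in the pig annexin A2 has been described among sperm-binding proteins of the oviduct. S100A10, also called p11, joins annexin A2 in a heterotetramer of a pair of each subunit that sits under the plasma membrane and can bind plasminogen activator.

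Libraries held between 7370723 and 30954222 counts. Values are given as CPM, the counts divided by a library total scaled by the trimmed mean of M-values (TMM) and multiplied by 1e6. The floor, set at 3 counts in a library, lay between 0.0959 and 0.406 CPM and allows for counting error only. Each of the 8 genes was far above it in all libraries. The first principal component, with 55.9% of the variance, set early luteal replicate 2 (at 176) far from the remaining libraries (-51.0 to 2.39). Each of the 8 genes is therefore also given without that library. Markers of the labelled tissue were looked up. The ciliated cell genes FOXJ1 and DNAH9, the secretory cell gene OVGP1 and the epithelial gene EPCAM were counted in every library. The secretory cell gene CRISP3 and IVL, a gene of squamous epithelium, had 0 counts. Squamous markers with a row summed to 0.298 to 2.71 CPM. FOXJ1, DNAH9 and IVL were picked from their marker lists after their values were seen, so they do not test the tissue.

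None of the 8 genes differed between the stages beyond the spread between libraries. edgeR's quasi-likelihood test called 0 of 8 at a Benjamini-Hochberg adjusted p of 0.05, and 0 of 8 had an unadjusted p under 0.05. Over all 17920 tested genes the test called 0 (0.0%), and 7.11% had an unadjusted p under 0.05. DESeq2 called 0 of the 8 as well, against 0.986% of all genes it tested, and limma voom called 0 of 8 both with and without weights for sample quality. In each of the 8 genes the values of the stages overlapped, where in 17.2% of all tested genes they did not. Of the 8, 4 stood higher and 4 lower in early luteal tissue. Their median log2 fold change, early luteal over post-ovulatory, was -0.04, beside -0.03 over all tested genes, of which 48.2% stood higher. A test that misses the threshold does not show equal levels, so an interval is given with each gene.

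**Figure D1:**
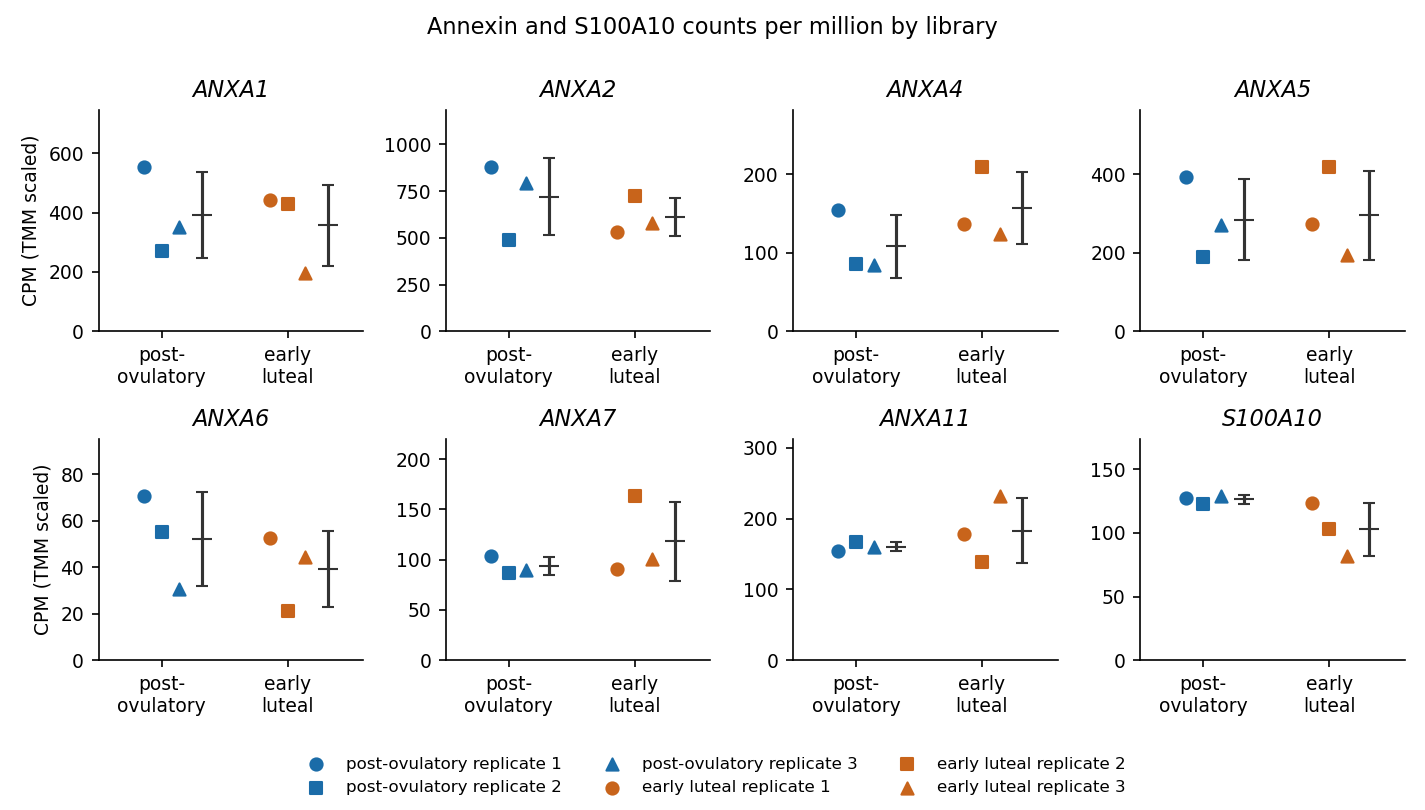
CPM of each gene (vertical axes, linear from 0) in the post-ovulatory (blue) and early luteal (orange) libraries, with marker shapes for the replicate and a bar for the mean ± SD of 3 libraries. The stages overlap in all 8 panels, and S100A10 and ANXA11 show the narrowest post-ovulatory spread.

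ANXA2 encodes annexin A2, the sperm-binding candidate described in the pig and the membrane-bound subunit of the complex with S100A10. The gene (ENSSSCG00000004578) lies on chromosome 1 from 111588721 to 111635064 in Sscrofa11.1. Its level was 878, 490 and 795 CPM in post-ovulatory replicates 1, 2 and 3 and 534, 726 and 577 CPM in early luteal replicates 1, 2 and 3. Post-ovulatory replicate 2 was the lowest of all 6 libraries and post-ovulatory replicate 1 the highest, so both extremes fell within 1 stage and the early luteal values lay between them. The stage means were 721 ± 204 CPM (SD, n = 3) and 613 ± 101 CPM. The log2 fold change was -0.24 ± 0.31 (SE), with a 95% interval from -0.95 to 0.48 (edgeR, adjusted p = 0.867). On a linear scale the interval reaches from 0.518 to 1.39 times the post-ovulatory level. Without early luteal replicate 2 the log2 fold change was -0.38 (adjusted p = 0.733).

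S100A10 (ENSSSCG00000006612, chromosome 4 from 97261752 to 97272517) encodes the small EF-hand protein that links 2 annexin A2 molecules. Post-ovulatory replicates 1, 2 and 3 stood at 128, 123 and 129 CPM. In early luteal replicates 1, 2 and 3 the level was 124, 104 and 82.1 CPM. Early luteal replicates 2 and 3 lay below every post-ovulatory library, and early luteal replicate 1 lay within their range. The means were 126 ± 3.45 and 103 ± 20.8 CPM (SD, n = 3), a log2 fold change of -0.29 ± 0.25 (SE) with a 95% interval from -0.86 to 0.27 (edgeR, adjusted p = 0.797). The largest increase inside that interval is 1.21-fold. With early luteal replicate 2 left out the log2 fold change was -0.30 (adjusted p = 0.733). Of the alternatives tried, limma voom with sample quality weights gave S100A10 its lowest adjusted p, 0.357.

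Because the proteins of ANXA2 and S100A10 form a complex, the ratio of their counts was taken within each library, where no scaling between libraries is needed. It is a ratio of read counts uncorrected for transcript length, so it says nothing on the number of molecules. S100A10 had 0.146, 0.250 and 0.162 counts per ANXA2 count in post-ovulatory replicates 1, 2 and 3, and 0.232, 0.142 and 0.142 in early luteal replicates 1, 2 and 3. Post-ovulatory replicate 2 and early luteal replicate 1 had the high ratios, 1 library of each stage, and the other 4 lay close together. The mean log2 ratio was -2.47 ± 0.41 (SD, n = 3) in post-ovulatory and -2.58 ± 0.41 in early luteal tissue, a difference of -0.11 (two-sided exact permutation test, p = 0.50, where 3 against 3 libraries cannot go below 0.10). The sign of this difference turned without post-ovulatory replicate 2 (0.12), and it came to 0.0056 or 0.0076 when replicate 2 or 3 of the early luteal stage was dropped.

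ANXA1 (ENSSSCG00000005267, chromosome 1 from 226414200 to 226431963) encodes annexin A1, known for restraining inflammation through formyl peptide receptors. Its level was 553, 272 and 353 CPM in post-ovulatory replicates 1, 2 and 3 and 443, 429.9 and 198 CPM in early luteal replicates 1, 2 and 3. The highest library was post-ovulatory replicate 1 and the lowest early luteal replicate 3, with a 2.80-fold range. Early luteal replicates 1 and 2 lay above post-ovulatory replicates 2 and 3, so the stages overlapped. The log2 fold change was -0.14 ± 0.40 (SE), with a 95% interval from -1.05 to 0.78 (edgeR, adjusted p = 0.946). Leaving out post-ovulatory replicate 1 turned the sign (0.18), as did leaving out early luteal replicate 3 (0.14), and with early luteal replicate 2 left out it was -0.29 (adjusted p = 0.870).

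ANXA5 (ENSSSCG00000009097, chromosome 8 from 102387833 to 102420868) encodes annexin A5, the protein used as a probe for phosphatidylserine on the outside of cells. Post-ovulatory replicates 1, 2 and 3 stood at 393, 190.0 and 269 CPM and early luteal replicates 1, 2 and 3 at 273, 418 and 195 CPM. Each stage held 1 high, 1 middle and 1 low library, at almost the same 3 levels. The means were 284 ± 102 and 295 ± 113 CPM (SD, n = 3), and the log2 fold change was 0.05 ± 0.38 (SE; 95% interval from -0.82 to 0.92; edgeR, adjusted p = 0.980). Without early luteal replicate 2 it was -0.28 (adjusted p = 0.833).

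ANXA4 encodes annexin A4, which is known for its place along the membranes of secretory and ion-transporting epithelia. The gene (ENSSSCG00000008336) lies on chromosome 3 from 72623311 to 72654591. Its level was 154, 86.1 and 84.0 CPM in post-ovulatory and 136, 209 and 124 CPM in early luteal replicates 1, 2 and 3. All 3 early luteal libraries lay above post-ovulatory replicates 2 and 3, and post-ovulatory replicate 1 lay above early luteal replicates 1 and 3. The means were 108 ± 39.8 and 156 ± 45.8 CPM (SD, n = 3), the largest positive log2 fold change of the 8 genes at 0.53 ± 0.34 (SE; 95% interval from -0.25 to 1.31; edgeR, adjusted p = 0.745). It was 0.86 without post-ovulatory replicate 1, the only alternative in which any of the 8 genes had an unadjusted p under 0.05 (adjusted p = 0.985), and 0.27 without early luteal replicate 2.

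ANXA6 (ENSSSCG00000017089, chromosome 16 from 71857229 to 71913723) encodes annexin A6, the large family member whose core is duplicated. It stood at 70.6, 55.3 and 30.8 CPM in post-ovulatory and at 52.5, 21.0 and 44.2 CPM in early luteal replicates 1, 2 and 3. Early luteal replicate 2 was the lowest library, and the stages overlapped between 30.8 and 52.5 CPM. The log2 fold change was the most negative of the 8, at -0.41 ± 0.42 (SE; 95% interval from -1.38 to 0.56; edgeR, adjusted p = 0.833), and it was -0.11 without early luteal replicate 2. With sample quality weights in limma voom the sign turned (0.20).

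ANXA7 and ANXA11 encode annexins with long N-terminal tails, and annexin A11 is known to tether RNA granules to lysosomes. ANXA7 (ENSSSCG00000010299, chromosome 14 from 76205238 to 76234646) stood at 103, 87.2 and 89.8 CPM in post-ovulatory and 90.5, 163 and 101 CPM in early luteal replicates 1, 2 and 3. Early luteal replicate 2 alone lay outside the range of the other 5 libraries, which ran from 87.2 to 103 CPM. The log2 fold change of 0.34 ± 0.29 (SE; 95% interval from -0.32 to 1.001; edgeR, adjusted p = 0.800) was 0.03 without it.

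ANXA11 (ENSSSCG00000010331, chromosome 14 from 81835205 to 81879565) stood at 155, 167 and 159 CPM in post-ovulatory and 178, 139 and 232 CPM in early luteal replicates 1, 2 and 3. Early luteal replicates 1 and 3 lay above the post-ovulatory libraries and early luteal replicate 2 lay below them. The log2 fold change was 0.19 ± 0.27 (SE; 95% interval from -0.42 to 0.80; edgeR, adjusted p = 0.877). Leaving out early luteal replicate 3 gave -0.03 and leaving out early luteal replicate 2 gave 0.35.

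**Figure D2:**
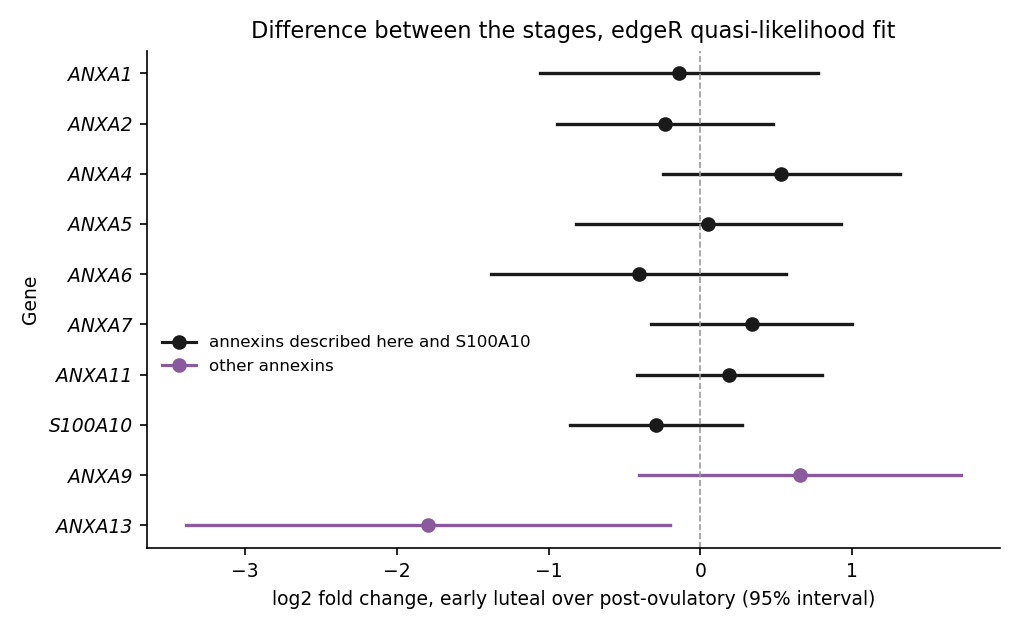
Log2 fold change of each gene, early luteal over post-ovulatory (horizontal axis), with its 95% interval from the edgeR fit, for the 8 genes (black) and 2 further annexins (purple). All 8 black intervals cross 0, and the interval of ANXA13 runs from -3.39 to -0.20.

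The genes differed from each other in which libraries were high. In post-ovulatory replicate 1, 7 of the 8 stood above their own mean over the 6 libraries, on the log2 CPM scale, where 53.4% of all tested genes did. In post-ovulatory replicates 2 and 3 and in early luteal replicate 3, 2 of the 8 did (55.8%, 55.6% and 55.9% of all tested genes). Early luteal replicate 2 split the set: ANXA4, ANXA5 and ANXA7 were 0.73, 0.59 and 0.66 above their means there, while ANXA6 was 1.01 below (deviation -1.01). ANXA1, ANXA2, ANXA4, ANXA5 and ANXA7 were all above their means in post-ovulatory replicate 1. All of them were below their means in post-ovulatory replicate 2 and early luteal replicate 3. Some of these deviations were slight (0.0036 for ANXA7 in post-ovulatory replicate 1, -0.020 for ANXA4 and -0.029 for ANXA7 in early luteal replicate 3). The genes grouped here were picked after their values were seen. They were also all above their means in early luteal replicate 2. Their signs differed in post-ovulatory replicate 3 (0.29 for ANXA2, -0.58 for ANXA4) and early luteal replicate 1 (0.32 for ANXA1, -0.29 for ANXA2). ANXA11 had its highest value in early luteal replicate 3 (0.45 above its mean).

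**Figure D3:**
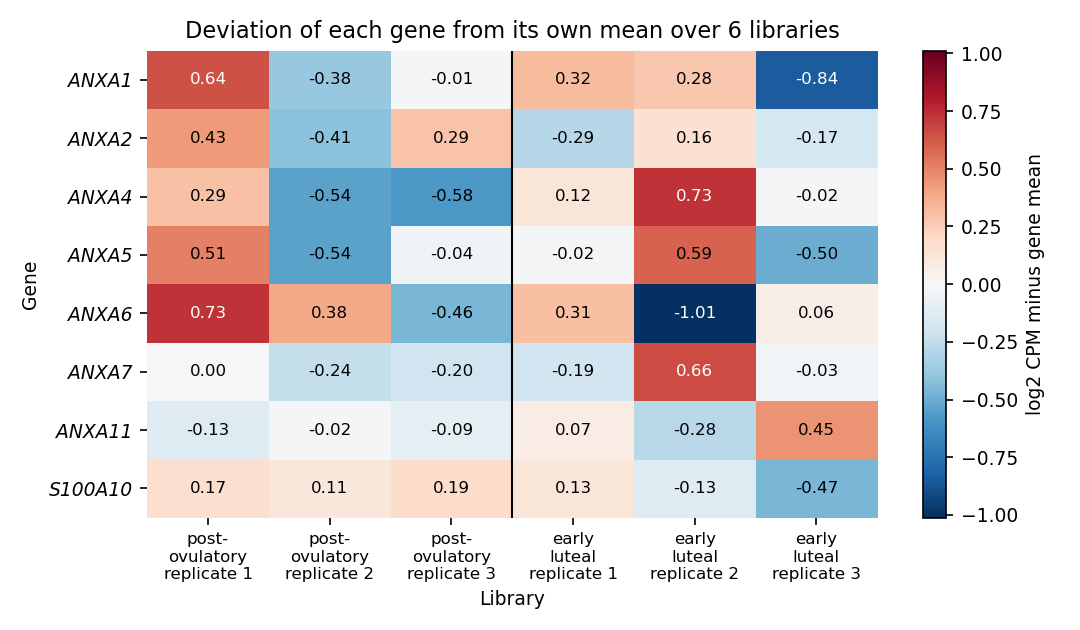
Deviation of each gene from its own mean, in log2 CPM (colour and printed value), by library, with a line between the stages. Post-ovulatory replicate 1 lies above 0 for 7 of 8 genes, ANXA7 barely so, and early luteal replicate 2 holds both strong red (0.73, ANXA4) and the strongest blue (-1.01, ANXA6).

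With the variances of both stages averaged, S100A10 had the lowest within-stage standard deviation, 0.21 in log2 CPM. It was followed by ANXA11 (0.26), ANXA7 (0.33) and ANXA2 (0.36). The low value of S100A10 came from post-ovulatory tissue (126 ± 3.45 CPM, against 103 ± 20.8 CPM in early luteal tissue, SD, n = 3). Early luteal deviations from the gene mean ran from -0.47 to 0.13 for S100A10 and from -0.29 to 0.16 for ANXA2, a narrower range. ANXA4 (0.45) and ANXA5 (0.54) followed, and ANXA1 (0.59) and ANXA6 (0.66) varied most. The median over the 8 was 0.40, beside 0.57 over all tested genes. A smaller standard deviation than that of S100A10 was found in 7.82% of tested genes. The tested genes include some at far lower levels, where counting error adds to the spread. No background of like level was taken. The ratio of the highest to the lowest library ran from 1.57 for S100A10 to 3.36 for ANXA6.

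Likeness to ANXA2 was measured as the root mean square difference between centred log2 CPM values over the 6 libraries. The 5 closest of 12782 genes with a symbol were CFAP276 (0.058), XPR1 (0.072), SH3BGRL2 (0.094), MOB1A (0.094) and VAPB (0.094), where the median gene stood at 0.57. CFAP276, a cilia and flagella associated protein, stood at 64.7, 37.5 and 58.0 CPM in post-ovulatory and 38.8, 58.7 and 45.4 CPM in early luteal replicates 1, 2 and 3, so that its high and low libraries were those of ANXA2. ANXA5 was the closest of the other 7 genes of the set, at rank 1204 (0.29), and S100A10 came next at rank 2118 (0.34). The measure favours genes that vary little, as S100A10 did, so its rank does not show that it followed ANXA2. The 2 genes deviated in opposite directions in post-ovulatory replicate 2 (0.11 for S100A10, -0.41 for ANXA2). The same held in early luteal replicates 1 (0.13 and -0.29) and 2 (-0.13 and 0.16). In the remaining libraries their signs were the same. ANXA6 was the farthest, at rank 8102 (0.71). Over 6 libraries that differ in depth and in marker levels, this ranking is a description only.

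Markers of the cell types in the tissue moved between libraries too. Ciliated cell markers (12 of 14 with a row) summed to 1908 to 3666 CPM in post-ovulatory and 2540 to 2769 CPM in early luteal libraries. The lowest sum was in post-ovulatory replicate 2 and the highest in post-ovulatory replicate 1, as for ANXA2. Early luteal replicates 1, 2 and 3 summed to 2769, 2540 and 2566 CPM. ANXA2 ran in the opposite order there (534, 726 and 577 CPM). Pan-epithelial and secretory sums were also lowest in post-ovulatory replicate 2, though both were highest in post-ovulatory replicate 3. Pan-epithelial markers (10 of 11 with a row) summed to 1629 to 2376 and 1798 to 2291 CPM. Smooth muscle markers (9 of 9) ran from 3866 to 7275 and from 1660 to 12537 CPM, and stromal markers (11 of 12) from 1497 to 2967 and from 795 to 2009 CPM. Endothelial markers (9 of 10) ran from 409 to 648 and from 414 to 569 CPM, and macrophage and dendritic cell markers (11 of 12) from 107 to 221 and from 75.3 to 211 CPM. Secretory markers (5 of 7, with CRISP3 at 0) ranged from 590 to 11144 and from 966 to 3061 CPM. OVGP1, the oviduct-specific glycoprotein, gave most of the sum where it was highest. Markers of neutrophils and mast cells (8 of 12, with MPO at 0), T and NK cells (11 of 12) and B and plasma cells (8 of 8) summed to between 18.0 and 704 CPM in any library. Mesothelial markers (3 of 7) summed to 356 to 484 CPM over both stages, nearly all of it WT1, erythrocyte markers (4 of 6) to 1.06 to 153 CPM, and squamous markers (3 of 8, with IVL at 0) to at most 2.71 CPM. Immediate early genes (12 of 12), which respond to tissue handling, summed to 410 to 1054 CPM in post-ovulatory and 541 to 2101 CPM in early luteal libraries. By gene, 8 of 9 tested smooth muscle markers stood higher in early luteal tissue (median log2 fold change 0.61). So did 2 of 11 stromal (-0.58), 2 of 9 endothelial (-0.57) and 0 of 11 macrophage and dendritic cell markers (-0.68). For ciliated and pan-epithelial markers it was 4 of 12 and 5 of 10, beside 48.2% of all tested genes. The stages did not overlap in 45.5% of stromal, 44.4% of endothelial and 0.0% of smooth muscle markers (17.2% of all tested genes). In edgeR 0 passed. The part of these shifts in the annexin values was not tested.

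The 3 remaining annexins with a row are not in the set. ANXA13, an annexin of epithelial cells that is N-terminally myristoylated, stood at 2.68, 4.42 and 8.76 CPM in post-ovulatory and 1.353, 2.44 and 0.864 CPM in early luteal replicates 1, 2 and 3. Every post-ovulatory library lay above every early luteal one, though early luteal values rest on 13 to 21 counts each. Its log2 fold change was -1.80 ± 0.70 (SE), and it did not pass the threshold (edgeR, adjusted p = 0.685; DESeq2, adjusted p = 0.255). It was -1.19 without post-ovulatory replicate 3, the library with the highest level. ANXA9, an annexin whose calcium sites are degenerate, stood at 26.1, 45.8 and 70.4 CPM in post-ovulatory and 116, 42.0 and 65.8 CPM in early luteal replicates, and the stages overlapped (log2 fold change 0.66 ± 0.46, SE; edgeR, adjusted p = 0.769). That value was 0.20 without early luteal replicate 1, 0.35 without post-ovulatory replicate 1 and 1.06 without post-ovulatory replicate 3. ANXA10 had 5 counts over the post-ovulatory and 6 over the early luteal libraries, 0 to 6 in any 1 of them, and was not tested.

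S100 proteins are small calcium-binding partners of annexins, and S100A11 is known as the partner of annexin A1. Of 17 further S100 genes, 11 had a row and 7 were tested, of which 6 stood lower and 1 higher in the early luteal stage (median log2 fold change -0.34). None passed the threshold in edgeR, and 1, S100A11, had an unadjusted p under 0.05. S100A11 stood at 199.5, 140.2 and 159 CPM in post-ovulatory and 92.2, 103 and 123 CPM in early luteal replicates 1, 2 and 3. The stages did not overlap, and the log2 fold change was -0.65 ± 0.26 (SE; edgeR, adjusted p = 0.685). S100A1 stood at 128 ± 23.8 against 105 ± 36.7 CPM and S100A2 at 23.3 ± 12.8 against 11.8 ± 9.055 CPM (post-ovulatory against early luteal, SD, n = 3), both with overlap.

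Among 17 partners of annexins A1 and A2 in binding, phospholipase control and plasmin formation, 14 had a row and 13 were tested. In edgeR 0 passed; 4 stood higher and 9 lower, and the median log2 fold change was -0.33. PLAT, the tissue plasminogen activator, stood at 370, 309 and 407 CPM in post-ovulatory and 372, 179 and 185 CPM in early luteal replicates and overlapped (-0.56 ± 0.35, SE; edgeR, adjusted p = 0.738), and it was -0.97 without early luteal replicate 1. PCNA, the sliding clamp of DNA replication, had an unadjusted p under 0.05 and stood at 221 CPM in post-ovulatory replicate 1 and between 23.7 and 40.4 CPM in the other 5 libraries, and its log2 fold change of -1.68 was -0.37 without that library. PLAUR, the urokinase receptor, was likewise high in 1 library (21.6 CPM in post-ovulatory replicate 2, 4.83 CPM or less elsewhere). CDC42 stood at 206 ± 50.6 against 180.4 ± 55.0 CPM (post-ovulatory against early luteal, SD, n = 3).

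Annexins share roles in membrane repair and calcium-dependent membrane binding with proteins such as calpains and ESCRT subunits. Of 24 other genes of these roles, 22 had a row and 20 were tested, 9 higher and 11 lower, with a median log2 fold change of -0.14, and 0 had an adjusted p under 0.05 or an unadjusted p under 0.05 (edgeR). In 5 of the 20 the stages did not overlap, beside the 17.2% of all tested genes. CAPNS1, the small subunit shared by calpains, stood at 253, 264 and 275 CPM in post-ovulatory and 204, 136 and 196 CPM in early luteal replicates 1, 2 and 3, a log2 fold change of -0.56 ± 0.26 (SE; edgeR, adjusted p = 0.685). CAPN2, a calpain catalytic subunit, stood at 235 ± 55.5 against 177 ± 7.23 CPM (post-ovulatory against early luteal, SD, n = 3). EHD2, a membrane-shaping ATPase of caveolae, stood at 41.7 ± 11.97 against 28.2 ± 1.17 CPM, and VPS4A, which recycles the ESCRT machinery, at 68.5 ± 11.11 against 44.6 ± 15.5 CPM.

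Fibronectin is a matrix protein that cells bind through integrins, and it has been linked to sperm adhesion in the oviduct. FN1, given because the list is named for it and picked after its values were seen, stood at 71.4, 146 and 65.8 CPM in post-ovulatory and 49.5, 145 and 154 CPM in early luteal replicates 1, 2 and 3. The values overlapped fully, with high libraries in both stages. Of 21 genes of fibronectin, its receptors and related matrix proteins, 20 were tested, 12 higher and 8 lower in early luteal tissue, with a median log2 fold change of 0.27. In edgeR 0 passed the threshold, and 4 of the 20 had an unadjusted p under 0.05 (7.11% of all tested genes), all with higher early luteal values: ITGB6, ITGA8, ITGAV and TNC. The stages did not overlap in 5 of the 20, beside 17.2% of all tested genes.

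These 4 are 3 integrin subunits and a matrix protein that some of the same integrins bind. ITGB6, which pairs with the product of ITGAV in an epithelial receptor for fibronectin and latent TGF-beta, stood at 0.893, 1.01 and 0.831 CPM in post-ovulatory and 3.03, 5.55 and 3.32 CPM in early luteal replicates 1, 2 and 3, from 46 and 138 counts. Its log2 fold change was 2.11 ± 0.61 (SE; edgeR, adjusted p = 0.645; DESeq2, adjusted p = 0.0579). ITGAV itself, named after its values were seen, stood at 39.5, 37.8 and 33.7 CPM against 50.2, 75.6 and 66.2 CPM. ITGA8 stood at 35.9, 66.4 and 28.5 CPM against 117, 86.4 and 94.4 CPM (log2 fold change 1.19 ± 0.35, SE; edgeR, adjusted p = 0.649). These 4 are among the 5 whose stages did not overlap, and none passed the threshold. TNC differed by 0.96 on the log2 scale (edgeR, adjusted p = 0.632). ITGB1, the common partner of many alpha subunits, stood at 248, 245 and 188 CPM in post-ovulatory and 171, 443 and 193 CPM in early luteal replicates, with overlap, and FBLN1 at 523 ± 93.5 against 423 ± 149 CPM (post-ovulatory against early luteal, SD, n = 3).

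Other proteins proposed to hold or coat sperm in the oviduct include secreted glycoproteins and chaperones found at the cell surface. Of 18 such genes 15 were tested, 3 higher and 12 lower in early luteal tissue, with a median log2 fold change of -0.80. In edgeR 0 passed, and 5 of the 15, all lower, had an unadjusted p under 0.05 (7.11% of all tested genes): PDIA6, PDIA4, PDIA3, HSPA8 and ENO1, of which PDIA3 and ENO1 were named after their values were seen. PDIA6, a protein disulfide isomerase, stood at 442, 208 and 252 CPM in post-ovulatory and 153, 124 and 155 CPM in early luteal replicates 1, 2 and 3, without overlap (log2 fold change -1.06 ± 0.33, SE; edgeR, adjusted p = 0.664). PDIA4 stood at 726, 279.9 and 379.8 CPM against 241, 218 and 233 CPM, and HSPA8 at 2371, 1151 and 1185 CPM against 562, 1035 and 364 CPM. In all 5 of these genes post-ovulatory replicate 1 was the highest library. Without it the log2 fold change was -0.68 for PDIA6, -0.53 for PDIA4 and -0.86 for HSPA8, where the full set of libraries gave -1.0 for PDIA4 and -1.26 for HSPA8. Of these 3, PDIA6 alone kept an unadjusted p under 0.05 (adjusted p = 0.985). The stages did not overlap in 7 of the 15 (46.7%, beside 17.2% of all tested genes). CLU, the secreted chaperone clusterin, stood at 3386 ± 823 against 3217 ± 1484 CPM (SD, n = 3), and OVGP1 ranged from 156 to 10688 CPM in post-ovulatory and from 292 to 2356 CPM in early luteal tissue. DMBT1, a pig oviduct glycoprotein that binds sperm, had no row under its symbol and was not analysed here.

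Sperm of the pig also bind glycans, including Lewis X and branched structures that end in sialic acid. Of 14 genes of their synthesis 11 were tested, 2 higher and 9 lower in early luteal tissue, with a median log2 fold change of -0.24, and 0 passed in edgeR. GCNT3, a branching enzyme, was the 1 gene with an unadjusted p under 0.05, at 8.86, 3.92 and 22.1 CPM in post-ovulatory and 1.42, 2.98 and 3.26 CPM in early luteal replicates 1, 2 and 3 (log2 fold change -2.20 ± 0.72, SE; edgeR, adjusted p = 0.664). The stages did not overlap, but post-ovulatory replicate 3 was the highest by far, and without it the log2 fold change was -1.33. ST3GAL4 stood at 32.5 ± 5.06 against 11.99 ± 9.04 CPM (post-ovulatory against early luteal, SD, n = 3). Its log2 fold change was -1.425 ± 0.67 (SE, edgeR, adjusted p = 0.688), and -0.93 without early luteal replicate 2. In 2 of the 11 genes of this list the stages did not overlap (18.2%, beside 17.2% of all tested genes). ST6GAL1, which adds sialic acid in the linkage that pig sperm bind, stood at 90.6 ± 38.8 against 72.8 ± 19.2 CPM, and B4GALT1 at 61.4 ± 2.16 against 55.5 ± 21.9 CPM, both with overlap. FUT9, a Lewis X fucosyltransferase named after its counts were seen, had 0 counts in all 6 libraries, which allows a level of up to the floor in each.

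**Figure D4:**
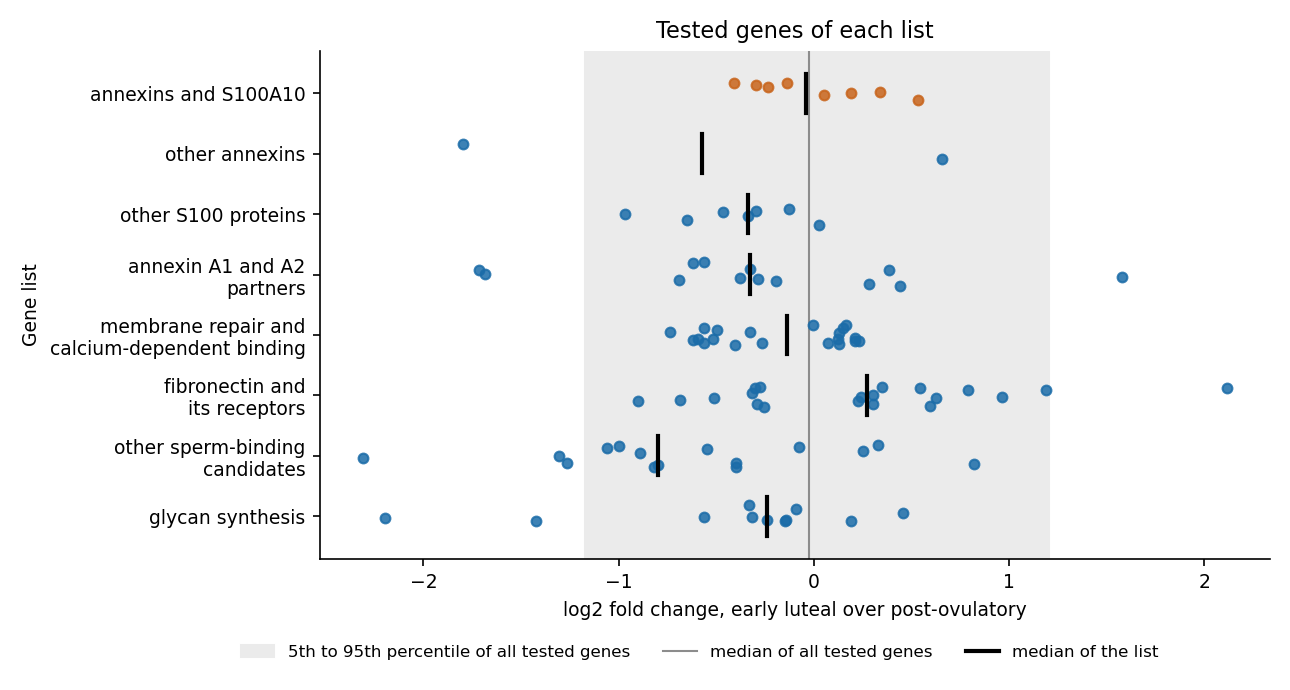
Log2 fold change, early luteal over post-ovulatory, of the tested genes of each list (points), with the list median (black bar), the median of all tested genes (grey line) and their 5th to 95th percentile (-1.17 to 1.20, grey band). The 8 annexin and S100A10 points lie between -0.41 and 0.53, inside the 5th to 95th percentile, while other lists have points outside it.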

How the data were processed

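Per the labels' protocols, total RNA of ampulla tissue went into a stranded mRNA library kit and was sequenced as read pairs on an Illumina instrument. The submitters' processing notes name FastQC 0.11.4, Trim Galore, STAR and the build Sscrofa11.1. How reads were counted, with which strand setting and annotation release, is not given in the sources used here. Values of overlapping, antisense or near-identical genes are therefore uncertain. The authors deposited 1 table of raw counts per Ensembl gene. Its header lacks a tab and the name of early luteal replicate 3 lacks a letter, so columns were taken in the order of the header's words. A table of identifiers gave 15623 symbols, and RefSeq, matched by symbol, gave gene positions. No transcript length was used, so levels are not compared between genes.

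edgeR 4.0.16 (R 4.3.3) was fitted across all genes with TMM scaling, filterByExpr (17920 genes kept) and the robust quasi-likelihood test, two-sided, with Benjamini-Hochberg adjustment over all tested genes and a threshold of 0.05. SE was computed as the size of the log2 fold change divided by √F, and 95% intervals use the test's degrees of freedom. Log2 CPM used a prior count of 2. The common biological coefficient of variation was 0.485. The scripts were tested on simulated data. Alternatives were other scalings, filters and thresholds, a block for replicate number, fits without 1 library, DESeq2 1.42.0 and limma 3.58.1. The genes and lists were chosen with earlier results of these data known. Lists are described by counts and medians. Named genes are the set, the other annexins, up to 3 genes with the lowest p-values and 2 with the highest means of each list (the latter alone for cell type lists), and the 5 genes most like ANXA2; the report marks other genes whose values it gives, and markers at 0 counts are named as such. A gene of the partner list is not reported here by name.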

Additional observations from a re-analysis of the deposited data

How the results depend on the processing

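Of the 8 genes, none passed an adjusted p of 0.05 under any of the 15 alternatives. Their median log2 fold change ran from -0.25 (without post-ovulatory replicate 2) to 0.17 (without post-ovulatory replicate 1), and 3 to 5 of them stood higher in early luteal tissue. Over all genes edgeR called 0 as reported and at an adjusted p of 0.1, and 8 with no filter on low counts, where DESeq2 called 175 and limma voom with sample quality weights 9. Libraries with the same replicate number deviated from their stage means with correlations of 0.05, -0.08 and 0.13, so the numbers were not taken to pair them. The replicate block gave 0 calls (1043 genes at an unadjusted p under 0.05, against 1275), a median of -0.07 over the 8 genes and a ratio difference of -0.11. Signs turned as follows, and the cause was not tested. ANXA5 was at -0.020 with no filter and at -0.18 with sample quality weights, which also turned ANXA6 (0.20), ITGB1 (-0.11) and B4GALT1 (0.10). With each library left out in turn, the log2 fold change ranged from -0.35 to 0.18 for ANXA1, from -0.28 to 0.34 for ANXA5, from -0.025 to 0.35 for ANXA11, from -0.47 to 0.0058 for CDC42, from -0.32 to 0.51 for ITGB1, from -0.50 to 0.13 for CLU, from -0.58 to 0.048 for ST6GAL1 and from -0.33 to 0.15 for B4GALT1. The difference in the S100A10 to ANXA2 log2 ratio ranged from -0.35 to 0.12. With 3 libraries a stage, the intervals of the 8 genes leave changes of the sizes given in the report undetectable.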
